A study of Mus musculus with 5 samples.

Results

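The sites described here are peaks of RELA ChIP-seq in mouse fibroblast-like synoviocytes (FLS). These peaks were present both before and after treatment with tumor necrosis factor alpha (TNF). Whether RELA itself was bound at them was not tested. They were chosen as the peaks of the RELA TNF list on chromosomes 1 to 19 and X whose summit lay at most 50 bp from a summit of the RELA untreated list. The rule found 342 sites, called retained sites below, among the 2070 RELA TNF peaks of these chromosomes. Each was paired with a RELA untreated summit of its own, so the 342 sites also made up 85.1% of the 402 RELA untreated peaks there. The remaining 1728 RELA TNF peaks had no such untreated summit and are used for comparison. ChIP-seq, which sequences the DNA that an antibody pulls down with a protein, was done on FLS of wildtype C57BL/6 mice with an antibody against RELA (p65) or SOX4. The cells were untreated or received 10 ng/mL TNF for 16 h, which gave 2 SOX4 lists and 2 RELA lists, each untreated and TNF. DNA of several cultures was pooled into 1 library per condition, so nothing below has replicates, no p-value was computed, and intervals over sites describe these libraries only. All 4 lists were called against the same input library from untreated FLS, so presence of a site in more than 1 list is not independent evidence of binding.

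FLS line the joint and turn invasive and inflammatory in arthritis. RELA is a subunit of NF-kB, which is held in the cytoplasm by inhibitor proteins in resting cells and moves to the nucleus when TNF triggers the breakdown of these inhibitors. In the nucleus it binds a short DNA motif and turns on cytokine and survival genes. SOX4 is a transcription factor of the SOXC group that binds a short AT-rich motif through its HMG box. A site that is already in the RELA list without TNF is therefore one where the antibody recovered DNA before the pathway was switched on.

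Sequences around some of the summits are shown first, because the retained sites fell into groups by sequence and these groups differed in how they changed with TNF. Each line gives the reference bases of RefSeq's mm10 (GRCm38) on the plus strand, with capitals marking the repeated words ATTCCATTCCA or CTGAACTGAAC read on either strand. The SINE-like group and group 3 are described by the words AGTAGCTGGGA and GCTGGGATTAC and by GAAATGCAAAT, in this order. The words were read from retained sites, and they and the names of the groups were chosen after the sequences had been seen. No repeat annotation was used, and the names describe the letters only.
Pentamer repeat I, chr11:25100164-25100193: TTCCATTCCAttccgttccattccgttcca
Pentamer repeat I, chr17:4626497-4626526: tccactccATTCCATTCCATTCCActccAT
Pentamer repeat I, chr8:90445874-90445903: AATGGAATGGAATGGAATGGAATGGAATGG
Pentamer repeat II, chr16:78061979-78062008: gagctggaCTGAACTGAACTGAACTGAACT
Group 5, chr2:86063955-86063984: aatggagtattactcagccattaaaaagaa
Not alike to any other, chr9:91901138-91901167: acacctatggacaccttatctttgacaaag
The 100 bp windows around the 342 summits were aligned with each other, and windows with at least 80% identity over at least 50 bases were joined. This gave 27 groups that held 136 sites, and 206 sites that were not alike to any other. The SINE-like group held 23 sites, pentamer repeat I 21, group 3 and pentamer repeat II 11 each, and group 5 held 9. The other 22 groups were small and held 61 sites together. The members of a group were not neighbours. The SINE-like sites lay on 13 chromosomes and the pentamer repeat I sites on 14. Pentamer repeat I is a tandem run of ATTCC, and pentamer repeat II a tandem run of CTGAA or a close form of it. SINEs are short interspersed repeats copied through RNA, of which the Alu elements of primates and the B1 elements of rodents both derive from 7SL RNA, the RNA of the signal recognition particle.

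The strongest retained sites were ranked by RELA TNF, and some of the other lists were also high there. Fold enrichment here is the ratio of the signal in a peak to the background that the peak caller expected. The highest RELA TNF value was 49.4, at chr11:25100079-25100226, between genes and 1022123 bp from the start of Bcl11a, a zinc finger repressor. The same site had 24.8 in RELA untreated, 21.7 in SOX4 untreated and 24.2 in SOX4 TNF. The next site, chr17:4626143-4626608, was also the widest with 466 bp, and its nearest protein-coding start was that of Arid1b, a subunit of a chromatin remodeling complex, 367820 bp away. Its fold enrichment was 48.4 in RELA TNF and lay between 15.2 and 15.4 in the other 3 lists. At the third site, in an intron of Plxdc2, which encodes a membrane protein with a plexin domain, RELA TNF was 47.4 against 14.1 in RELA untreated, 11.1 in SOX4 untreated and 18.1 in SOX4 TNF. The 10 retained sites with the highest RELA TNF values ran from 38.4 to 49.4. No value of the other lists passed 29.0, so this choice fixed RELA TNF as the highest at each. Of these 10 sites, 7 belonged to pentamer repeat I. Of the other 3, the sites in Plxdc2 and in Zfp949, a zinc finger gene, were SINE-like. The site in an intron of Plxdc1, a relative of Plxdc2, was like no other, with 39.4 in RELA TNF, 10.3 in RELA untreated, 13.8 in SOX4 TNF and no SOX4 untreated summit.

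Sites that were high in all 4 lists were mostly other sites, but the strongest RELA TNF site was the third of them. They were ranked by the smallest of their 4 fold enrichments. The first lay in an intron of Asb3, which encodes an adaptor of a ubiquitin ligase, at chr11:30888275-30888344. Its values were 24.8 in SOX4 untreated, 28.5 in SOX4 TNF, 24.4 in RELA untreated and 28.4 in RELA TNF. The 4 libraries thus lay close together at this site, and the same held at a group 5 site in AI481877, with 21.5, 24.7, 24.2 and 27.2 in the same order. Another group 5 site, 10022 bp before the start of the olfactory receptor gene Olfr1036 had 22.7 in SOX4 untreated, 28.0 in SOX4 TNF, 23.5 in RELA untreated and 26.9 in RELA TNF. The site upstream of Fstl1, which encodes a secreted glycoprotein, had 24.3, 26.6, 21.4 and 25.9, and the site upstream of Psmf1, a proteasome inhibitor, 17.4, 22.3, 19.3 and 22.95. At the site nearest to Plscr5, of a family of membrane lipid scramblases, the values were 18.5, 29.0, 26.5 and 30.9. RELA TNF stood apart at 4 of the 10. These were the chr11:25100079-25100226 site, a SINE-like site in Acacb, the mitochondrial acetyl-CoA carboxylase, with 32.1 against 20.98 to 23.1, a SINE-like site in Fam227b with 36.6 against 17.4 to 23.6, and a site in the 7SL RNA gene Rn7s1 with 38.4 against 18.8 to 21.7.

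**Figure D1:**
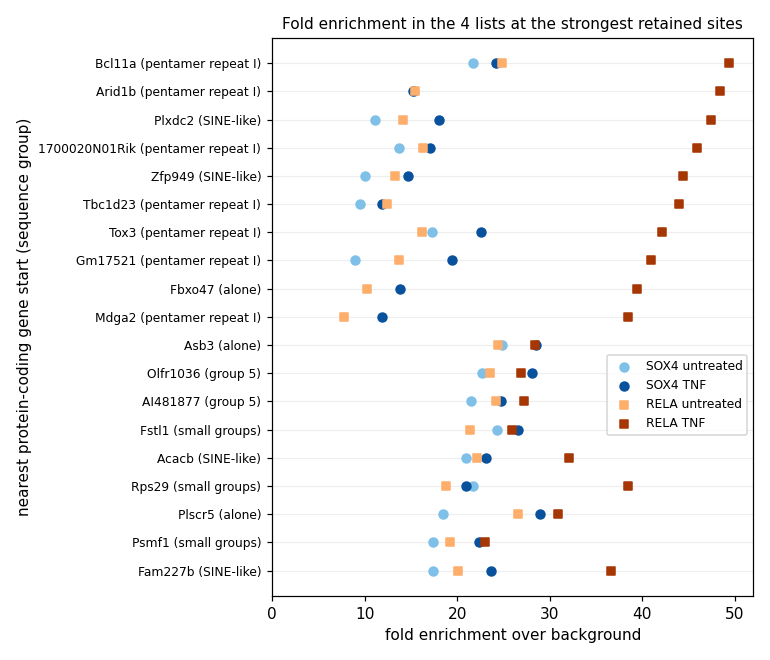
Fold enrichment over background (x axis) in the 4 lists at the 10 retained sites with the highest RELA TNF value (top) and the further sites of the 10 that were high in all 4 lists (below), each named by the nearest protein-coding gene start and its sequence group (y axis). Circles are SOX4 and squares RELA, with the darker color for TNF. At the top sites, chosen by RELA TNF, that value lies between 38.4 and 49.4 and so right of the other lists. At the Asb3 site all 4 values lie between 24.4 and 28.5.

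The sites were chosen by the presence and summit positions of peaks in both RELA lists, so their RELA values are a description and were not tested. The median RELA fold enrichment at the 342 sites was 9.40 without TNF (range 4.94 to 26.5) and 11.97 with TNF (4.55 to 49.4). The 1728 other RELA TNF peaks had a median of 9.98 (1.96 to 36.9). RELA was higher with TNF at 296 retained sites (86.5%), beside 86.6% of the 464 RELA pairs on all chromosomes, with a median log2 ratio of 0.26 (95% interval from order statistics 0.22 to 0.29). This direction depended on the scale, since subtracting the median log2 ratio of all SOX4 pairs turned it to -0.20. The ratios were not spread evenly. There were 123 sites with a log2 ratio between 0 and 0.25, 67 between 0.25 and 0.50 and 11 between 0.75 and 1, and again 21 between 1.50 and 1.75. In all, 73 sites (21.3%) were at least 2-fold higher with TNF, beside 15.9% of the 464 pairs. These 73 were 17 SINE-like sites, 20 pentamer repeat I sites and 36 others.

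The fold enrichments came in even steps, from which the reads behind them were inferred. In RELA TNF, 79.9% of the 2502 values were whole multiples of a step of 0.499 after a fixed offset, within 0.02 of a step, and in RELA untreated 78.4% of 561 values fitted a step of 0.427. If 1 step is 1 read over the summit, the median retained site rested on 24 reads with TNF (11 to 98, n = 251 sites) and on 22 reads without TNF (11 to 61, n = 246). At the 236 sites where both values fitted, reads were higher with TNF at 108, equal at 24 and lower at 104, and the median log2 ratio of reads was 0 (-0.03 to 0.06). A site with equal reads in both libraries had a log2 ratio of fold enrichment of 0.22, from the different steps, and the median of 0.26 lay near this value. With the peak caller's usual formula, the steps and the fragment length and genome size in the file headers correspond to about 6260000 reads in RELA TNF and 7830000 in RELA untreated. The read counts above were not corrected for this difference in depth. Both depths are below the sequencing depth given in the study's methods, and the cause was not tested. The counting error of a single ratio was wide, with a median half-width of 0.83 on the log2 scale for a 95% interval that treats reads as independent. The RELA ratio exceeded 0 by more than this error at 50 of 236 sites (21.2%) and fell below 0 by more than it at none.

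**Figure D2:**
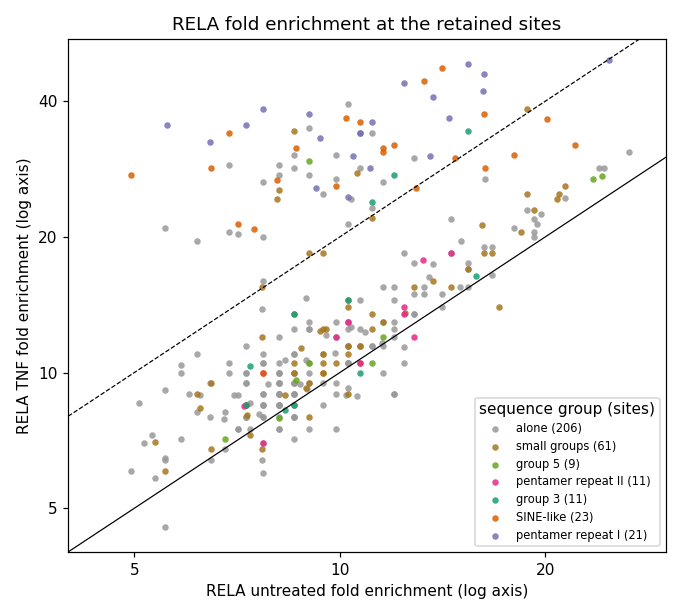
RELA fold enrichment without TNF (x axis, log scale) and with TNF (y axis, log scale) at the 342 retained sites, each point 1 site colored by sequence group, with a solid line for equal values and a dashed line for a ratio of 2. Most points lie just above the solid line, and the 21 pentamer repeat I sites lie between 24.6 and 49.4 with TNF, at or above the dashed line for 20 of them.

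The RELA ratio differed between the sequence groups. In pentamer repeat I, the median RELA fold enrichment was 10.7 without TNF (5.59 to 24.8) and 35.4 with TNF (24.6 to 49.4), a median log2 ratio of 1.65 (1.38 to 1.83, n = 21 sites). In the SINE-like group it was 11.6 without TNF (4.94 to 22.1) and 30.9 with TNF (9.98 to 47.4), a median log2 ratio of 1.44 (1.02 to 1.75, n = 23). Both groups were thus near the other retained sites without TNF and about 3 times higher than most of them with TNF. Group 3 had a median log2 ratio of 0.48 (-0.02 to 1.16, n = 11), pentamer repeat II 0.22 (-0.10 to 0.37, n = 11) and group 5 0.16 (-0.04 to 0.22, n = 9). The 206 sites like no other had a median of 0.22 (0.17 to 0.25), the value of equal reads. Pentamer repeat II, although a tandem repeat of the same unit length as pentamer repeat I, had no site of 11 that was at least 2-fold higher with TNF, against 20 of 21. By reads over the summit, the pentamer repeat I sites went from a median of 24 (12 to 57) to 74 (64 to 98) at 13 sites, and each of these ratios exceeded 0 by more than its counting error. The SINE-like sites went from 26 (15 to 41) to 63 (19 to 94) at 11 sites, with 10 ratios beyond counting error. Without both groups, the median read number was 21 without TNF and 22 with TNF at 212 sites.

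The SOX4 ratios of the SINE-like group and pentamer repeat I did not stand apart in this way. SOX4 fold enrichment could be compared between conditions at the 149 sites that were in all 4 lists. There the median log2 ratio of TNF over untreated was 0.46 (0.39 to 0.54), and 11 of 149 sites (7.38%) were at least 2-fold higher, beside 6.83% of all 161 SOX4 pairs. The median SOX4 ratio was 0.46 in the SINE-like group (0.30 to 0.70, n = 15 sites), 0.46 in pentamer repeat I (0.16 to 0.80, n = 17) and 0.47 in the sites like no other (n = 82). It was 0.54 in group 3 (n = 5), 0.74 in pentamer repeat II (n = 2) and 0.30 in group 5 (n = 3), which are too few sites for a comparison. The RELA ratio at all 149 sites had a median of 0.33 (0.26 to 0.40), with 33 sites (22.1%) at least 2-fold higher. By fold enrichment, RELA and SOX4 were each higher with TNF at 137 of the 149 sites, beside 86.6% of the RELA pairs and 90.7% of the SOX4 pairs. Equal reads correspond to a log2 ratio of 0.22 for RELA but -0.15 for SOX4. The implied depth was lower with TNF for RELA, 6260000 against 7830000 reads, but higher for SOX4, 6890000 against 5560000. Reads were not corrected for depth, so equal reads are not a point of no change, and the 2 factors lean in opposite directions. By reads over the summit, RELA was higher with TNF at 53 of 102 sites (51.96%), equal at 9 and lower at 40, and SOX4 was higher at 102 of 103. The counting half-width of the SOX4 ratio had a median of 0.88, and 12 of 103 SOX4 ratios exceeded 0 by more than it.

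**Figure D3:**
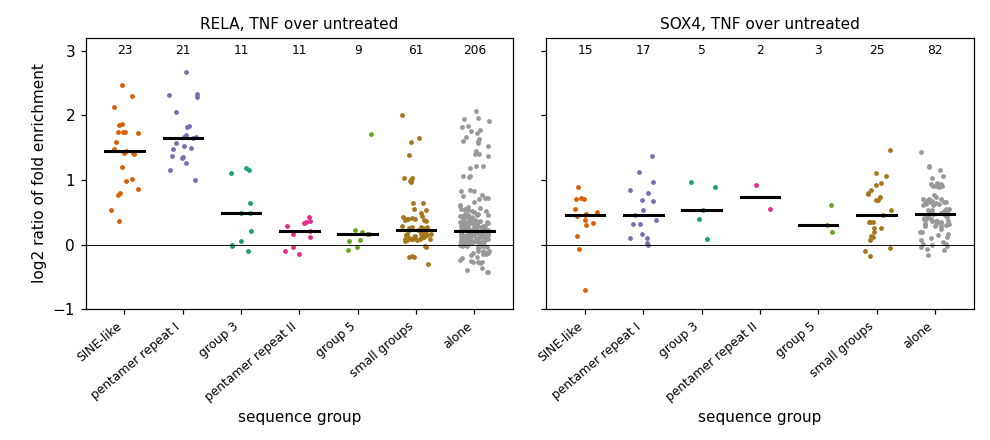
Log2 ratio of fold enrichment, TNF over untreated (y axis), for RELA at the 342 retained sites (left) and for SOX4 at the 149 of them that were in all 4 lists (right), by sequence group (x axis). Points are sites, black bars medians and the numbers on top the sites per group. The RELA medians of the SINE-like group and pentamer repeat I, 1.44 and 1.65, stand above those of the other groups, while the SOX4 medians of these groups are both 0.46.

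The sites with the largest ratios were low without TNF, which a ranking by this ratio favors. At chr10:37263689-37263825, a pentamer repeat I site 124855 bp from the start of Marcks, which encodes a substrate of protein kinase C, RELA went from 5.59 to 35.4, a log2 ratio of 2.66, and no SOX4 summit was near. In an intron of Bzw2, a regulator of translation, a SINE-like site went from 4.94 to 27.4, with 8.14 in SOX4 TNF and no summit in SOX4 untreated. A pentamer repeat I site 47457 bp before the start of Sulf1, an extracellular sulfatase that edits heparan sulfate, went from 6.44 to 32.4 in RELA, while SOX4 had 7.93 without TNF and 8.08 with TNF. So RELA was about 5-fold higher with TNF at this site, while the SOX4 values lay close together. The remaining 5 of the 8 largest ratios lay between 2.07 and 2.31, near Mdga2, Shisa2 and Cyp2e1 and in introns of Ano2, a chloride channel, and Pkn3, a protein kinase. Of the 8, 4 were pentamer repeat I and 3 SINE-like.

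The 8 lowest ratios were small. They ran from -0.42 to -0.27, and at the 6 whose reads could be recovered the counting half-width lay between 0.71 and 1.09, so none of these 6 differed from 0 by more than counting error. The lowest 2 had the same RELA values, 11.995 without TNF and 8.98 with TNF, or 27 and 17 reads. They lay in an intron of Lrrc7, which encodes a scaffold protein of synapses, with 13.3 in SOX4 TNF, and 262231 bp from the start of the protocadherin gene Pcdh17, with 8.56 in SOX4 TNF. Neither was in the SOX4 untreated list. Others lay in an intron of Otud7a, a deubiquitinase, near Gm17267, Ogfrl1 and Virma, a part of the RNA methylation complex, and near the palmitoyltransferase gene Zdhhc9. Only the site nearest to Ogfrl1 was in all 4 lists, with 8.98 in SOX4 untreated, 15.7 in SOX4 TNF, 17.1 in RELA untreated and 13.97 in RELA TNF. None of the 8 belonged to the 5 largest sequence groups.

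The SOX4 lists were not used by the rule. Of the 342 retained sites, 299 had a SOX4 TNF summit at most 50 bp away (87.4%, Wilson 95% interval 83.5 to 90.5), beside 18.4% of all 2070 RELA TNF peaks. Of the 1728 other RELA TNF peaks, 82 had one (4.75%, 3.84 to 5.85). A SOX4 untreated summit lay near 151 retained sites (44.2%, 39.0 to 49.5), beside 7.68% of the 2070, and near 8 of the other peaks (0.463%, 0.235 to 0.911). Both SOX4 lists held 149 retained sites (43.6%, 38.4 to 48.9), beside 7.2% of the 2070 in all 4 lists. A further 150 were in SOX4 TNF alone, 2 in SOX4 untreated alone and 41 (11.99%) in neither. The summits were close, with a median distance of 4 bp to the SOX4 TNF summit (highest 32 bp) and 3 bp to the SOX4 untreated summit (highest 45 bp). Read from the SOX4 side, 55.1% of the 543 SOX4 TNF peaks and 78.6% of the 192 SOX4 untreated peaks were at retained sites.

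The contrast was seen in all 3 ranges of RELA peak height. Among peaks with a RELA TNF fold enrichment of at least 14, 126 of 136 retained sites and 19 of 410 other peaks had a SOX4 TNF summit. Between 9 and 14 the numbers were 107 of 120 and 17 of 625, and below 9 they were 66 of 86 and 46 of 693. So a strong RELA peak that was not in the RELA untreated list was seldom in the SOX4 TNF list (4.63%, 2.99 to 7.12), while a weak retained site usually was (76.7%, 66.8 to 84.4). Among retained sites both shares were higher at higher peaks. That with a SOX4 TNF summit went from 76.7% to 92.6% (87.0 to 96.0), and that with a SOX4 untreated summit from 16.3% (9.95 to 25.5) through 40.8% (32.5 to 49.8) to 64.7% (56.4 to 72.2). The 60 RELA untreated peaks without a TNF summit, which had a median fold enrichment of 7.30, were between the retained sites and the other peaks, with 20 of 60 (33.3%, 22.7 to 45.9) near a SOX4 TNF summit. On bases that were not soft-masked, the shares with a SOX4 TNF summit were 117 of 133 and 35 of 439. The input library was shared by all lists, and its part in these shares was not tested.

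**Figure D4:**
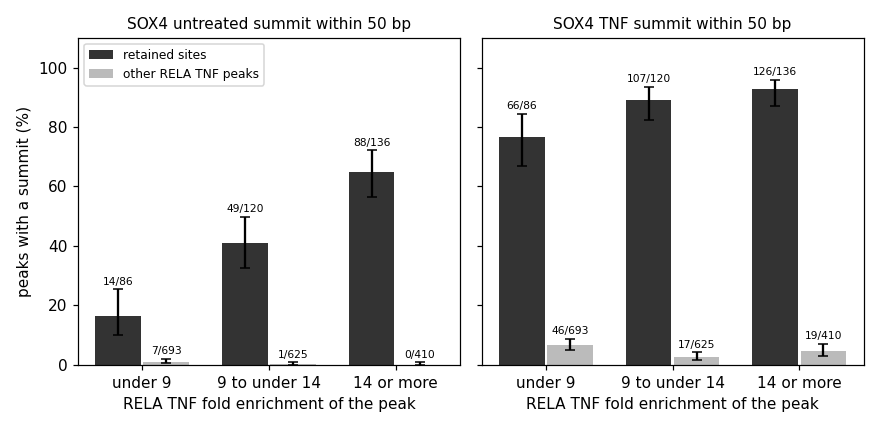
Share of RELA TNF peaks with a SOX4 untreated (left) or SOX4 TNF (right) summit within 50 bp (y axis, percent), by the fold enrichment of the RELA TNF peak (x axis), for the 342 retained sites (dark) and the 1728 other peaks (light). Bars are shares with Wilson 95% intervals, and the numbers give peaks with a summit out of all. In the right panel the retained sites lie at 76.7% to 92.6% and the other peaks at 2.72% to 6.64%.

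Within 1 sequence word the same contrast was seen. ATTCCATTCCA, the unit of pentamer repeat I, was found in 24 retained windows of 100 bp (7.02%, 4.76 to 10.2) and in 38 other RELA TNF windows (2.20%, 1.61 to 3.00), beside 3% of all 2070, and in none of 684 windows 2000 bp to either side of the retained summits. Of the 24 retained peaks with the word, 22 had a SOX4 TNF summit, and of the 38 others, 2 had one. The retained peaks were also stronger, with a median RELA TNF fold enrichment of 34.7 against 14.7. GCTGGGATTAC, a word of the SINE-like group, was rarer among retained sites, with 9 windows (2.63%, 1.39 to 4.92) against 171 others (9.90%, 8.58 to 11.4), beside 8.7% of the 2070. Here 8 of 9 retained and 2 of 171 other peaks had a SOX4 TNF summit, and the median RELA TNF fold enrichment was 31.4 against 11.5. AGTAGCTGGGA, which can overlap GCTGGGATTAC, was in 12 retained windows (3.51%) and 111 others (6.42%), beside 5.94% of the 2070, with 11 of 12 and 3 of 111 near a SOX4 TNF summit. The words of pentamer repeat II and group 3 were held by few other peaks. Because the words were read from retained sites, a higher share in retained windows than in other or flanking windows is partly set by that choice. CTGAACTGAAC was in 12 retained windows and 4 others, beside 0.773% of the 2070, and GAAATGCAAAT was in 11 retained windows and 13 others, beside 1.16%.

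A single base separated words that differed in how often they carried a RELA peak. GCTGGGATTAA is the form of the word in rodent B1 elements, and GCTGGGATTAC is the form in the primate Alu consensus. The first was found at 127768 places on chromosomes 1 to 19 and X, and 93 of them (0.0728%) had a RELA TNF summit within 50 bp. The second was found at 13038 places, of which 182 (1.40%) had one. ATTCCATTCCA had 63 of 3119 places with a RELA TNF summit (2.02%) and 25 with a RELA untreated summit (0.802%). ATTCC is also the unit of human satellites II and III. Retained windows held GCTGGGATTAA at 2 sites (0.585%, 0.161 to 2.11), beside 4.4% of the 2070 RELA TNF windows, and their flanking windows at 6 of 684 (0.877%), whereas GCTGGGATTAC was in 9 retained windows and 1 of 684 flanking windows. The reads were not analysed here, and whether reads of another source took part in these peaks was not tested.

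Motifs of the factors themselves were not frequent. The NF-kB consensus was found in 2 of 342 retained windows (0.585%, 0.161 to 2.11), in 0.483% of all 2070 and in 3 of 684 flanking windows (0.439%). Of the SOX words, AACAATG was in 7 retained windows (2.05%, 0.995 to 4.16), 1.45% of the 2070 and 14 of 684 flanking windows (2.05%). AACAAAG was in 17 retained windows (4.97%, 3.13 to 7.82), 3% of the 2070 and 14 of 684 flanking windows (2.05%). The AP-1 word TGANTCA was in 9 retained windows (2.63%, 1.39 to 4.92), 2.51% of the 2070 and 27 of 684 flanking windows (3.95%). Both strands were searched, and a window without these letters says nothing of the factor. For AACAAAG the interval of the retained share lay above the flanking share but overlapped the interval of that share (1.22 to 3.41). Flanks of the other RELA TNF peaks held AACAAAG at 3.30%. For the other 3 words the retained interval held the flanking share.

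Most retained sites lay away from gene starts. The summit was in an intron at 154 sites (45.03%, 39.8 to 50.3), up to 50 kb upstream of a gene at 94 (27.5%, 23.02 to 32.4) and outside both at 80 (23.4%, 19.2 to 28.2). A further 10 were in other exons, 4 in untranslated regions and none in coding sequence, which allows up to 1.11%. This order is set by counting genes first, since with the upstream regions first 20.5% were in introns and 54.97% upstream. With genes first, the other RELA TNF peaks had 48.03% in introns, 29.5% upstream and 16.8% outside (15.1 to 18.7), so the share outside genes and their upstream regions was higher among retained sites, and that share is the same in either order. The median distance to the nearest annotated start was 18038 bp (15127 to 20864), against 16114 bp (15073 to 17261) for the other peaks, and these intervals overlap. By sequence group, 17 of 23 SINE-like sites were in introns but 2 of 21 pentamer repeat I sites. The summit base was soft-masked, meaning marked as repeat in the reference, at 61.1% of the retained sites (55.8 to 66.1) and 74.6% of the others (72.5 to 76.6). It was soft-masked at all 23 SINE-like, 20 of 21 pentamer repeat I and 88 of 206 sites like no other. The 50-base window was found more than once in the genome at 15 sites (4.39%, 2.68 to 7.11), against 2.72% (2.05 to 3.60) of the others. With 24-base windows the order was the opposite, 28.9% (24.4 to 33.97) against 36.7% (34.5 to 39.0). Retained windows had a lower median GC content, 39% against 45%, and retained peaks a median width of 64 bp against 59 bp.

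**Figure D5:**
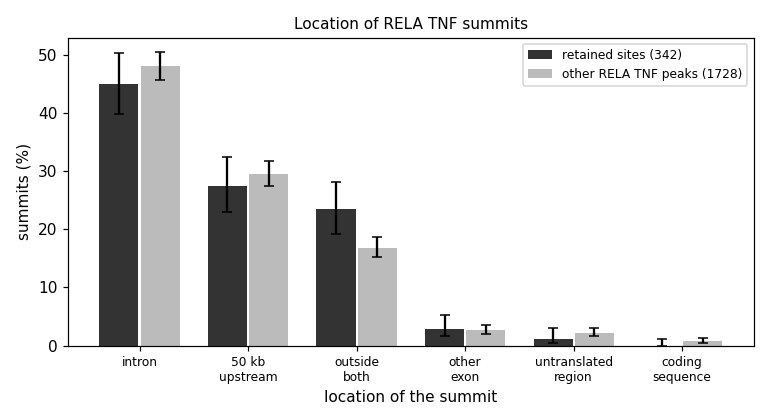
Share of RELA TNF summits (y axis, percent) by location in the GENCODE annotation (x axis), for retained sites (dark) and other RELA TNF peaks (light), with Wilson 95% intervals and genes counted before upstream regions. Introns hold 45.03% and 48.03%, and the class outside genes and their 50 kb upstream holds 23.4% and 16.8%.

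Of the retained sites, 4 lay within 1 kb of a protein-coding gene start (1.17%, 0.456 to 2.97), as did 1.50% of the others. The site before S100a8, which encodes a calcium-binding protein that neutrophils release in inflamed joints, was at chr3:90668644-90668701, 319 bp before the start, and belonged to pentamer repeat II. Its fold enrichment was 9.86 in RELA untreated, 11.97 in RELA TNF and 8.56 in SOX4 TNF, with no SOX4 untreated summit. The site in the untranslated region of Lpl, lipoprotein lipase, at chr8:68880522-68880572, 60 bp after the start, had 7.93 in SOX4 untreated, 10.5 in SOX4 TNF, 10.3 in RELA untreated and 10.5 in RELA TNF. The values of the 4 lists were thus close together at Lpl, and RELA did not differ between conditions beyond counting error. The third site, 380 bp before the start of the ribosomal protein gene Rps29, was the Rn7s1 site described above, whose 50-base window occurs 2 times in the genome. The fourth, 742 bp after the start of Gm28557, had 6.99 in SOX4 untreated, 7.80 in SOX4 TNF, 6.17 in RELA untreated and 10.98 in RELA TNF.

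The retained sites were assigned to 518 genes, 285 of them protein-coding, by a gene body around the summit or a start within 50 kb downstream of it. This is 1.3% of the 21924 annotated protein-coding genes, and the other RELA TNF peaks were assigned to 7.98%. No retained site was assigned to any of 36 TNF-induced inflammatory genes, such as cytokines, chemokines and adhesion molecules. A list this short can hold none at a share of 1.3%. Other RELA TNF peaks were assigned to 4 of the 36 (11.1%, beside 7.98%). Among 44 genes of the NF-kB pathway, 1 (2.27%, beside 1.3%) had a retained site and 7 (15.9%, beside 7.98%) had another RELA TNF peak. The retained site was 5161 bp before the start of Traf2, an adaptor of the TNF receptor, at chr2:25552068-25552133. It was SINE-like, went from 8.09 in RELA untreated to 26.7 in RELA TNF, and had no SOX4 summit.

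Of 28 MAP kinase and AP-1 genes, 2 (7.14%) had a retained site, beside 1.3% of all protein-coding genes. The gene lists were chosen with earlier results of these data known, so their shares are a description. The site assigned to Junb, a subunit of AP-1, was 43932 bp before its start and inside an intron of Asna1, with 9.43 in RELA untreated, 10.98 in RELA TNF and 12.4 in SOX4 TNF. The site 15727 bp before Map3k8, a kinase that acts between the TNF receptor and ERK, had 10.7, 11.5 and 10.9 in the same lists. Both were little changed in RELA and neither was in the SOX4 untreated list. Of 38 chromatin regulators, 3 (7.89%, beside 1.3%) had a retained site, all in introns and all in the 4 lists. In Ncoa1, a nuclear receptor coactivator, a group 3 site had 15.4 in RELA untreated, 34.4 in RELA TNF, 7.93 in SOX4 untreated and 14.7 in SOX4 TNF. In Setbp1, which encodes a binding partner of the SET protein, a SINE-like site had 11.995, 31.9, 9.51 and 15.7. The site in Kat6b, which encodes a histone acetyltransferase, was lower, with 6.24, 8.90, 7.77 and 10.9. RELA was thus over 2-fold higher with TNF at Ncoa1 and Setbp1, and the ratio at Kat6b was smaller.

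Of the other lists, 37 matrix and protease genes, 22 SOX and fibroblast factors and 44 genes of TGF-beta, BMP and Wnt signaling, 1 gene each had a retained site. These shares are 2.70%, 4.55% and 2.27%, beside 1.3% of all protein-coding genes. Col6a3, a chain of collagen VI, had one 18581 bp before its start, with 5.32 in RELA untreated, 7.27 in RELA TNF, 4.17 in SOX4 untreated and 11.2 in SOX4 TNF, a SOX4 log2 ratio of 1.43. Tcf7l2, a transcription factor at the end of Wnt signaling, held one in an intron, with 8.15 in RELA untreated, 8.48 in RELA TNF and 10.9 in SOX4 TNF. The site 22265 bp before Tgfbr3, a co-receptor of TGF-beta, went from 8.09 to 24.3 in RELA and had 9.91 in SOX4 TNF. A list from the study holds 638 genes that respond to TNF and depend on SOXC. Of these, 617 were in the annotation, and 14 (2.27%) had a retained site and 70 (11.3%) another RELA TNF peak. Among all protein-coding genes the shares were 1.3% and 7.98%. The list also holds noncoding genes such as Rn7s1, so these shares are not a matched comparison. The list was made from the study's own RNA-seq of FLS, so the count of 14 genes is not independent evidence. Besides Junb, Kat6b, Map3k8, Ncoa1, Setbp1 and Tcf7l2, they included Pkn3, Hmcn1, Edf1, which shares the Traf2 site, Trir, which shares the Junb site, and both 7SL RNA genes, Rn7s1 and Rn7s2. The site in an intron of Hmcn1, an extracellular matrix protein, had 7.72 in RELA untreated, 8.48 in RELA TNF and 11.4 in SOX4 TNF. The site assigned to Gm44560, in an untranslated region of the ubiquitin ligase gene Ube3a, was 1 of the 2 that were in SOX4 untreated but not SOX4 TNF, with 8.46 in SOX4 untreated, 10.3 in RELA untreated and 9.26 in RELA TNF. At Rn7s2 the values were 7.74 in SOX4 untreated, 21.4 in SOX4 TNF, 10.6 in RELA untreated and 27.8 in RELA TNF, so that both factors were higher with TNF there, whereas at Rn7s1 SOX4 had 21.7 without and 20.9 with TNF. The 2 genes are near-identical copies, and reads may have been split between them.

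Few sites lay near the limit of 50 bp. The median distance between the RELA summits was 5 bp, and 272 of 342 (79.5%) were at most 10 bp apart. Just inside the limit, the 5 largest distances were 41, 29, 25, 23 and 21 bp. The 41 bp site was a pentamer repeat I site 7173 bp before the start of Olfr855, with 10.3 in RELA untreated and 24.6 in RELA TNF. Just outside it, the 5 nearest RELA TNF peaks were 58, 60, 64, 85 and 153 bp from an untreated summit, with RELA TNF fold enrichments of 8.48, 4.99, 7.48, 4.99 and 8.19, and 1 of them had a SOX4 TNF summit. By chromosome, the retained share of RELA TNF peaks ran from 7.46% on chromosome 15 (5 of 67) to 28.3% on chromosome 18 (17 of 60). Only Kcnq1 and Lsamp held 2 retained sites each.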

How the data were processed

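Per the labels and the study's methods, the authors mapped single-end reads to mm10 and called peaks with MACS2 against 1 input library, and the file headers give a p cutoff of 1e-05 and fragments of 300 bases. Duplicate and multi-mapped reads are not described in the sources used here. The deposited fold change is a fold enrichment, a ratio of peak signal to background, and the deposited P and Q scores are −log10 of p and q. The lists hold no read totals, so the reads behind them were inferred from the steps of the fold values. With the fragment length of the headers, on which the totals depend, they came out below the depth that the study's methods give.

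Summits were paired at 50 bp. Genes came from GENCODE M21 (gene body or 50 kb upstream), sequences and soft-masking from the RefSeq copy of GRCm38 (mm10), 66 sequences of which were searched for copies. Words were counted in 100 bp windows and windows 2000 bp to either side. Windows were aligned with blastn (BLAST+ 2.17.0, word size 11). Shares have Wilson 95% intervals and medians intervals from order statistics, which cover counting over sites only. The distance, the pairing and the word, class, copy and step searches were tested on simulated data. Scripts ran in Python 3.11.15, with scipy 1.17.1 for intervals, pandas 2.3.3 and numpy 2.4.6 for tables, numba 0.67.0 for the copy search and matplotlib 3.10.9 for plots.

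Members, gene lists and named sites were chosen with earlier results of these data known. Named sites were the 10 with the highest RELA TNF fold enrichment, the 8 highest and 8 lowest ratios, the 10 highest by the smallest of 4 values, all within 1 kb of a protein-coding start, all assigned to a listed gene, and the 5 nearest to either side of the distance limit. The peaks of some genes and the sequences of some sites are not reported here.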

Additional observations from a re-analysis of the deposited data

Results flagged for a closer look

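At 12 of the 149 retained sites in all 4 lists, RELA was higher and SOX4 lower with TNF, and at another 12 RELA was lower and SOX4 higher, by fold enrichment. Of the 12 SOX4 decreases, 11 were of at most 0.18 on the log2 scale, and all ratios below 0 with a counting half-width, in either factor, were smaller than it. By reads over the summit, which could be recovered in all lists at 98 of the 149 sites, RELA was higher and SOX4 lower at none, and RELA was lower and SOX4 higher at 38. These counts therefore depend on the scale, and the read counts were not corrected for the different depths of the libraries. The difference between the factors was not tested, since each condition is 1 library. Among the first 12, a SINE-like site on chromosome 2 (summit 168131269) differed most, with RELA going from 8.62 to 31.4 and SOX4 from 11.6 to 7.13. The log2 SOX4 ratio of -0.71 was within its counting half-width of 0.98. Among the second 12, a site in Bach2, which encodes a repressor of lymphocyte genes, went from 10.6 to 8.88 in RELA and from 4.82 to 10.7 in SOX4.

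Chromosome Y, which the choice of sites left out, held 432 RELA TNF peaks, and 122 of them had a RELA untreated summit within 50 bp. The SOX4 lists hold no peak on chromosome Y. The median log2 RELA ratio of the 122 was 0.30 (0.22 to 0.41), 1 of them was at least 2-fold higher with TNF, and 56 (45.9%) had a 50-base window that is found more than once in the genome.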

How the results depend on the processing

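Of 59 alternatives, 30 left the value within its interval or, for counts, within 1.5 times. The number of retained sites stayed within this limit throughout, from 263 with a −log10 q of at least 10 in both lists to 464 with chromosome Y. The median RELA log2 ratio became 0.44 with −log10 q in place of fold enrichment and -0.20 after subtraction of the SOX4 median. Among alternatives chosen after seeing the data, it became 0.22 without the SINE-like group and pentamer repeat I and 0 on the scale of reads, and the share at least 2-fold higher became 12.1% without these groups. The scale of reads, also chosen after seeing the data, was not corrected for library depth. On it, RELA was higher with TNF at 51.96% of the sites in all 4 lists and SOX4 at 99.0%. RELA was higher and SOX4 lower at 0 sites and the opposite held at 38, where reads could be recovered. The share of retained sites with a SOX4 TNF summit was 78.7% with summits at most 10 bp apart and 90.9% at the stricter q. The share with a SOX4 untreated summit was 36.9% at the stricter q and 50.4% off soft-masked bases, and that of all 4 lists was 37.5% at 10 bp, 36.5% at the stricter q and 48.9% off soft-masked bases. For the other RELA TNF peaks, the share with a SOX4 untreated summit became 1.001% at 10 bp. Off soft-masked bases their shares were 7.97% for SOX4 TNF and 1.59% for SOX4 untreated and for both. With protein-coding genes only, 7.31% lay within 5 kb of a start, against 17.0% for all genes. Placing the 50 kb upstream first gave 20.5% in introns and 54.97% upstream. With 24-base windows 28.9% had more than 1 copy, against 36.7% of the other peaks. Windows of 200 bp held AACAATG at 4.39%, AACAAAG at 9.06% and TGANTCA at 4.97% of sites. The sites were assigned to 212 genes with 5 kb upstream and to 339 by the nearest start. The cause of these moves was not tested. No paired analysis was possible because there was a single library for each condition, and no library could be left out for the same reason. The median counting half-width of a single ratio was 0.83 on the log2 scale (0.47 to 1.16), which limits single sites more than medians over sites.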
